A study of Mus musculus with 7 samples.

Results

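Marker genes of cancer-associated fibroblasts (CAFs), 10 in number, were followed in 7 subcutaneous (s/c) mouse pancreatic ductal adenocarcinoma (PDA) tumors. The members were listed by name, with earlier results of these data known. They were matched to the Ensembl identifiers of the count table by symbol, which found 10 of the 10 among 22629 rows. They are Acta2, Tagln and Postn, used as markers of myofibroblastic CAFs, Fap, Pdpn, Pdgfra and Pdgfrb, used as general fibroblast markers, and Il6, Dpt and Lum, used as markers of inflammatory or matrix fibroblasts. All 10 had enough reads to be tested, among 17489 genes tested in all.

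The tumors were formed in C57BL/6 mice with a cell line derived from a mouse PDA tumor, the same for both groups. In 3 tumors the cells carried a scrambled CRISPR guide and Cas9 (sgScramble control, tumors 1, 4 and 5). The other 4 came from sgScramble cells that expressed ovalbumin kept in the cytoplasm (icOVA, tumors 15, 16, 18 and 2). The methods give mice of 6 weeks at purchase, 2 weeks of housing before use and harvest 2 weeks after inoculation. Ovalbumin was induced with doxycycline food, and the sources used here do not say whether the mice bearing the 3 sgScramble tumors received it. The icOVA cells were transduced, sorted and cloned from single cells. Unless the sgScramble tumors came from the same clone, the antigen and the clone cannot be told apart. Whether the sgScramble tumors came from a pool or a clone, and whether their cells carried the ovalbumin vector without induction, is not given either. Nor is it given whether as many cells were inoculated, and the methods name a larger inoculum for tumors with inducible ovalbumin. The fibroblasts were those of the host mice.

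CAFs are host cells that PDA cancer cells recruit and activate, and they lay down the dense matrix for which this cancer is known. Myofibroblastic CAFs lie close to cancer cells, respond to TGF-beta and contain contractile actin filaments, whereas inflammatory CAFs respond to interleukin-1 and secrete cytokines such as IL-6. Acta2 encodes the smooth muscle actin of myofibroblasts, and Tagln encodes transgelin, an actin-binding protein. Neither is restricted to CAFs, since pericytes and vascular smooth muscle express both. The RNA came from whole tumors, cancer cells included, and how much of any member the cancer cells made was not tested.

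Upstream sequences are shown for a contractile gene, a matrix gene and the member with the highest fold change. RefSeq promoter entries on GRCm38.p6 were found for 6 members, Acta2, Postn, Pdpn, Pdgfra, Il6 and Dpt, and not for Fap, Tagln, Lum and Pdgfrb. The 250 bases before the RefSeq transcription start are printed for Acta2 (chr19:34255374-34255623, minus strand), for the downstream of 2 starts of Postn (chr3:54360857-54361106, plus strand) and for Dpt (chr1:164796413-164796662, plus strand). By the gene coordinates used below (GENCODE M21), Acta2 starts at 34255590 and Dpt at 164796644. Both starts lie within the printed windows, so most of the Acta2 window and the end of the Dpt window are inside the gene as annotated there. Capitals mark CArG boxes, the sites bound by serum response factor, with at most 1 mismatch in the 6 middle bases, and TATAAA on the gene's strand.
Acta2: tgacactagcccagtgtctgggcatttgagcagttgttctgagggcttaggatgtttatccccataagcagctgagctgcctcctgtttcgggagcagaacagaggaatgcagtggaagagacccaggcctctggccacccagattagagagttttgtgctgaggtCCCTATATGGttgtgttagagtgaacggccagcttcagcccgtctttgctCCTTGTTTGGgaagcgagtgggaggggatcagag
Postn: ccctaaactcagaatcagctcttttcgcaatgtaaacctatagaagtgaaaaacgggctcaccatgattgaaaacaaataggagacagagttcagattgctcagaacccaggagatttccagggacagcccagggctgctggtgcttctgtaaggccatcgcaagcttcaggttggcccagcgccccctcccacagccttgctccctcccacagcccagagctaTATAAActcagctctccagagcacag
Dpt: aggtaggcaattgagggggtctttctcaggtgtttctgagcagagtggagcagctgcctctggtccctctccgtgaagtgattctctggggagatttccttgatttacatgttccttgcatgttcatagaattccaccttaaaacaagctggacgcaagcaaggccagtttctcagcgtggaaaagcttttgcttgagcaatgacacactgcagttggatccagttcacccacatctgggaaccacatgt

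The Acta2 window held 2 such CArG boxes, from 84 to 75 and from 34 to 25 bases before the RefSeq start, each with 1 mismatch. Both boxes lie downstream of the GENCODE start of Acta2. The windows of the other 5 members with an entry held none. Of 32851 promoter windows of this length, 8.59% held a CArG box with at most 1 mismatch and 1.47% a strict one, searched on both strands, as the pattern reads the same on either. TATAAA stood from 26 to 21 bases before the start of Postn, and 7.59% of windows held it on the gene's strand. These are matches of letters and not shown to be bound in the tumors.

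Total counts ran from 30904855 to 37510591 per tumor. Values are given as counts per 1000000 counts (CPM), scaled by the TMM method. Differences were tested with the quasi-likelihood method of edgeR, with the Benjamini-Hochberg adjustment taken over the 17489 genes. OVA counts checked the labels and were 85 to 151 in the sgScramble tumors and 3413 to 10750 in the icOVA tumors. In these bulk samples fewer cells of a type and less RNA per cell cannot be told apart. The methods give the right flank as the site of injection. Nothing in the labels says that tumors came from separate mice, so p values measure the spread between these samples.

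Of the 10 fibroblast markers, Tagln was lower in icOVA tumors, 0 passed the threshold as higher, and 9 were not called at an adjusted p of 0.05 (edgeR). Over all genes tested, 5.9% were called in either direction, 3.36% higher and 2.54% lower. At an unadjusted p below 0.05, Fap, Pdpn and Dpt were higher and Tagln lower, where 27.2% of all genes were past that level, 13.4% higher and 13.8% lower. DESeq2 called 2 members higher, Pdpn and Dpt, and limma-voom called 0 higher, while both called Tagln lower. Over all genes, DESeq2 called 8.91% higher and 7.31% lower, and limma-voom 2.96% and 2.42%. The median log2 fold change of the 10 members was 0.42, against -0.0050 over all genes tested, and 8 of the 10 were above 0, against 49.4% of all genes. Pdpn was higher in every icOVA tumor than in any sgScramble tumor, as 11.3% of all genes were. Tagln was lower in every icOVA tumor, as 13.3% of all genes were. The groups overlapped for the other 8 members.

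**Figure D1:**
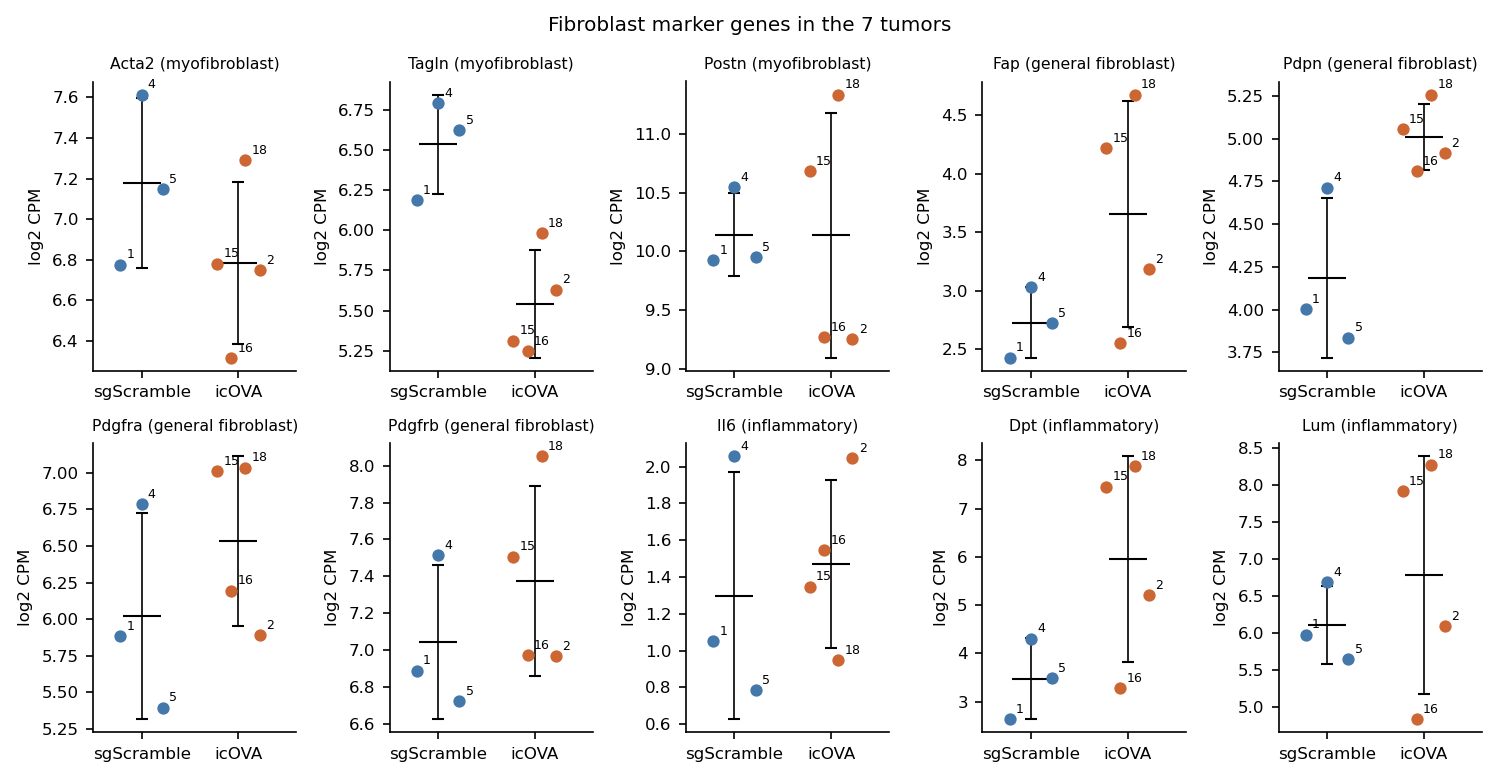
Log2 CPM (prior count 2) of the 10 fibroblast markers in each tumor, with sgScramble tumors in blue, icOVA tumors in orange, the tumor number beside each point, and the mean ± SD of the group as a bar. The vertical axes differ between genes. The groups are apart for Tagln and Pdpn, and the icOVA points spread widely for Dpt, Lum, Fap and Postn.

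Both contractile genes had negative log2 fold changes in icOVA tumors, and the one for Tagln passed the threshold. Tagln (ENSMUSG00000032085.5, chromosome 9 from 45929619 to 45936058 on GRCm38, minus strand) had 72.9, 110.6 and 98.5 CPM in sgScramble tumors 1, 4 and 5. It had 39.7, 37.9, 63.1 and 49.5 CPM in icOVA tumors 15, 16, 18 and 2. The highest icOVA tumor, 18, was below the lowest sgScramble tumor. The means were 94.0 ± 19.2 CPM (SD, n = 3) and 47.5 ± 11.5 CPM (SD, n = 4). Tagln fell by 0.98 on the log2 scale (SE 0.21, edgeR adjusted p = 0.0381). The call depended on the tumors included, although the log2 fold change stayed between -1.15 and -0.84. Adjusted p values from edgeR were 0.117, 0.0667 and 0.169 without sgScramble tumor 1, 4 or 5, and 0.113 and 0.0886 without icOVA tumor 15 or 2. Over all genes, edgeR called 0 without sgScramble tumor 1 or 5 or icOVA tumor 15. It called 6 higher and 2 lower without icOVA tumor 2, and 862 higher and 681 lower without sgScramble tumor 4. Tagln overlaps Pcsk7 on the opposite strand, and whether reads were counted by strand is not stated. Pcsk7 had 1176 to 1724 counts over the 7 tumors and a log2 fold change of 0.14 (edgeR adjusted p = 0.319).

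Acta2 (ENSMUSG00000035783.9, chromosome 19 from 34241090 to 34255590) had 109.5, 195.9 and 141.7 CPM in the sgScramble tumors. Its sequence before the RefSeq start, with 2 CArG boxes, is printed above. Acta2 had 109.9, 79.6, 156.5 and 107.4 CPM in icOVA tumors 15, 16, 18 and 2. For Acta2, icOVA tumors 16 and 2 were below all sgScramble tumors and the other 2 overlapped them. Its log2 fold change was -0.39 (SE 0.25, 95% interval -0.98 to 0.19, edgeR adjusted p = 0.349). Acta2 shares much of its coding sequence with the other muscle actins. The skeletal muscle actin Acta1 ran from 14 to 2001 counts (log2 fold change 0.43, edgeR adjusted p = 0.856). Acta1 was lowest in sgScramble tumor 5 and icOVA tumor 2, where Acta2 had 141.7 and 107.4 CPM. The smooth muscle actin Actg2 ran from 85 to 343 counts (log2 fold change -1.61, edgeR adjusted p = 0.0230). The part of reads from related actins in the Acta2 values was not tested.

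Postn (ENSMUSG00000027750.16, chromosome 3 from 54361109 to 54391037) encodes periostin, a matrix protein made by activated fibroblasts, and was the member with the most reads. It had 974, 1498 and 992 CPM in the sgScramble tumors and 1648, 617, 2588 and 610.5 CPM in icOVA tumors 15, 16, 18 and 2. Here icOVA tumors 15 and 18 were above every sgScramble tumor and icOVA tumors 16 and 2 below every one. The SD of log2 CPM was 0.35 for sgScramble and 1.04 for icOVA. Postn had a log2 fold change of 0.24 (SE 0.52, 95% interval -0.96 to 1.44, edgeR adjusted p = 0.794), and turned to -0.27 without icOVA tumor 18 and to -0.0080 with limma-voom.

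The 4 general fibroblast markers had log2 fold changes from 0.36 to 1.14, and 0 of them passed the threshold of edgeR's test, with Fap and Pdpn below an unadjusted p of 0.05, Pdpn called by DESeq2 and 0 called by limma-voom. Pdpn (ENSMUSG00000028583.14, chromosome 4 from 143267431 to 143299564), which encodes podoplanin, a surface glycoprotein also made by lymphatic endothelium and some macrophages, had 15.98, 26.2 and 14.2 CPM in the sgScramble tumors. It had 33.2, 28.0, 38.2 and 30.1 CPM in icOVA tumors 15, 16, 18 and 2. The lowest icOVA tumor was just above sgScramble tumor 4, and the icOVA values were close together, with an SD of 0.19 log2 CPM. The log2 fold change was 0.78 (SE 0.22, edgeR adjusted p = 0.0743). It passed the threshold with DESeq2 (adjusted p = 0.00786) and in edgeR's test when sgScramble tumor 4 was left out (1.11 on the log2 scale, adjusted p = 0.0170).

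Fap (ENSMUSG00000000392.17, chromosome 2 from 62500943 to 62574075) encodes fibroblast activation protein, a surface protease of reactive fibroblasts. It had 5.33, 8.11 and 6.55 CPM in the sgScramble tumors and 18.5, 5.82, 25.5 and 9.02 CPM in icOVA tumors 15, 16, 18 and 2. The values of 3 icOVA tumors were above all sgScramble tumors, and icOVA tumor 16 lay within them. The log2 fold change was 1.14 (SE 0.49, 95% interval 0.017 to 2.27, edgeR adjusted p = 0.178).

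Pdgfra (ENSMUSG00000029231.15, chromosome 5 from 75152292 to 75198215) and Pdgfrb (ENSMUSG00000024620.11, chromosome 18 from 61045150 to 61085061) encode the receptors for platelet-derived growth factors, Pdgfrb also being a marker of pericytes. Pdgfra had 58.9, 110.3 and 42.0 CPM in the sgScramble tumors and 129.1, 73.2, 131.2 and 59.2 CPM in icOVA tumors 15, 16, 18 and 2. Pdgfrb had 118.5, 182.9 and 105.7 CPM, and 181.9, 125.5, 265.1 and 125.3 CPM, in the same order. For both genes sgScramble tumor 4 was above icOVA tumors 16 and 2. Pdgfra had a log2 fold change of 0.48 (95% interval -0.43 to 1.39, edgeR adjusted p = 0.463) and Pdgfrb of 0.36 (95% interval -0.35 to 1.07, edgeR adjusted p = 0.475). Neither was called with any tumor left out, but Pdgfra moved to 0.22 without sgScramble tumor 5 and to 0.97 without sgScramble tumor 4, and Pdgfrb to 0.089 without icOVA tumor 18 and to 0.65 without sgScramble tumor 4. They were the closest pair of members, with a root mean square distance of 0.25 log2 CPM over the 7 tumors after each was centred.

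The 3 members used as markers of inflammatory or matrix fibroblasts, Il6, Dpt and Lum, had log2 fold changes from 0.12 to 3.21. By root mean square distance of centred log2 CPM, Il6 lay 1.30 from Lum and 1.99 from Dpt. Dpt lay 1.015 from Lum, and Lum was nearer to Fap, at 0.50. The range is that of separate genes, and a change of the inflammatory state as such was not tested. Dpt (ENSMUSG00000026574.5, chromosome 1 from 164796644 to 164824266) encodes dermatopontin, a small matrix protein of dermal and adventitial fibroblasts, and had 6.16, 19.7 and 11.1 CPM in the sgScramble tumors. It had 174.9, 9.66, 234.0 and 37.0 CPM in icOVA tumors 15, 16, 18 and 2. Only icOVA tumor 16 lay within the sgScramble values, while the other 3 were above them, so that the highest icOVA tumor had 24.2 times the CPM of the lowest. Its log2 fold change, 3.21 (SE 1.05, 95% interval 0.77 to 5.65), was the highest of the members and did not pass the threshold of edgeR's test (adjusted p = 0.105). DESeq2 called it (adjusted p = 0.0207), as did edgeR's test without icOVA tumor 16 (log2 fold change 3.59, adjusted p = 0.0329), and limma-voom did not (log2 fold change 2.499, adjusted p = 0.298).

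Lum (ENSMUSG00000036446.5, chromosome 10 from 97565128 to 97572703) encodes lumican, a proteoglycan that organizes collagen fibrils. It had 63.1, 103.0 and 50.3 CPM in the sgScramble tumors and 240.8, 28.6, 309.5 and 68.5 CPM in icOVA tumors 15, 16, 18 and 2. Both icOVA tumors 15 and 18 were above every sgScramble tumor and icOVA tumor 16 was the lowest of all 7. Its log2 fold change was 1.17 (SE 0.75, 95% interval -0.57 to 2.90, edgeR adjusted p = 0.348).

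Il6 (ENSMUSG00000025746.11, chromosome 5 from 30013114 to 30019981), the cytokine that names the inflammatory state, was the member with the fewest reads, with 52 to 135 counts per tumor. It had 2.01, 4.10 and 1.66 CPM in the sgScramble tumors and 2.49, 2.87, 1.87 and 4.07 CPM in icOVA tumors 15, 16, 18 and 2. The highest tumors of both groups were alike and the groups overlapped throughout. The log2 fold change was 0.12 (SE 0.38, 95% interval -0.76 to 1, edgeR adjusted p = 0.861), and fell below 0 without sgScramble tumor 1 or 5 or icOVA tumor 2.

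**Figure D2:**
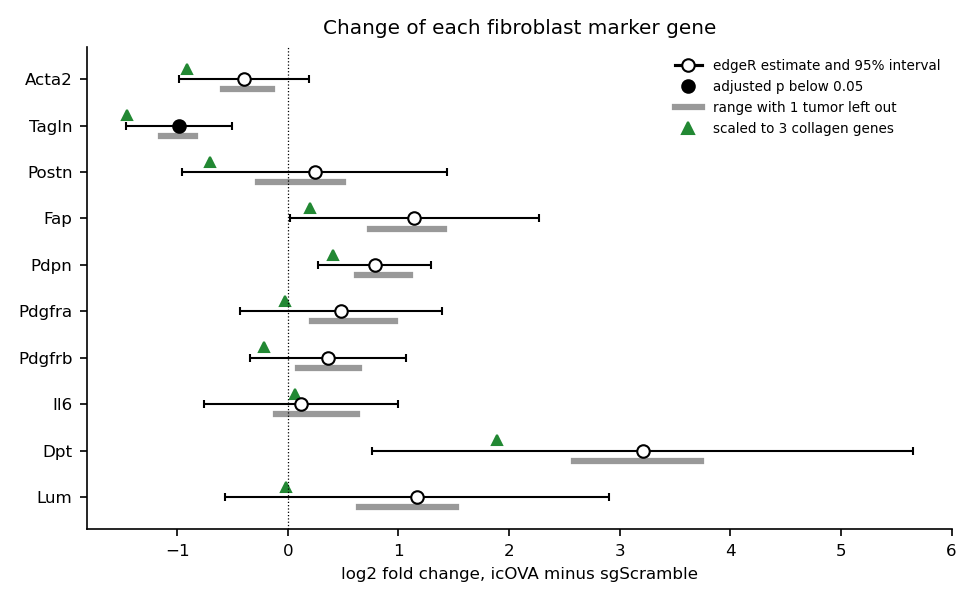
Log2 fold change of each fibroblast marker, icOVA minus sgScramble, with its 95% interval from edgeR (circles, filled where the adjusted p is below 0.05), the range with each tumor left out (grey bars), and the value with libraries scaled to Col1a1, Col1a2 and Col3a1 (green triangles). Tagln alone is filled, at -0.98, and Dpt has the widest interval, from 0.77 to 5.65.

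Levels were compared between genes as CPM per kilobase of exon. The median over the 7 tumors was highest for Postn, at 114.0, followed by Acta2 at 50.0, Tagln at 31.7, Lum at 28.0, Pdgfrb at 22.9, Pdpn at 15.4, Dpt at 11.4, Pdgfra at 7.30, Fap at 1.43 and Il6 at 1.02. The ranges of all 9 neighbouring pairs in this order overlapped over the tumors. Dpt ran from 3.57 to 135.7 per kilobase.

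Ratios of members with related roles were then taken within each tumor, which removes the scaling between libraries. The 3 pairs were chosen after their values were seen. The p values and shares of genes given for them therefore describe these pairs and cannot serve as a test. Tagln counts per Acta2 count were 0.665, 0.565 and 0.695 in the sgScramble tumors and 0.361, 0.476, 0.403 and 0.460 in icOVA tumors 15, 16, 18 and 2. Every icOVA ratio was below every sgScramble ratio, where 0.412% of all genes tested had a ratio to Acta2 that was lower without overlap. The log2 ratio differed by -0.60. A two-sided exact permutation test gave p = 0.0571, which is the lowest value possible with 3 against 4 tumors (0.0856 after Benjamini-Hochberg adjustment over the 3 pairs). With each tumor left out, the difference ran from -0.69 to -0.52.

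Dpt counts per Lum count were 0.0976, 0.191 and 0.221 in the sgScramble tumors and 0.726, 0.338, 0.756 and 0.539 in icOVA tumors 15, 16, 18 and 2. Here every icOVA ratio, that of tumor 16 included, was above every sgScramble ratio, and 0.212% of all genes had a ratio to Lum that was higher without overlap. The log2 ratio differed by 1.81 (two-sided and exact permutation test, p = 0.0571, Benjamini-Hochberg 0.0856), and the difference ran from 1.45 to 2.05 with each tumor left out. Pdgfra counts per Pdgfrb count overlapped between the groups, from 0.397 to 0.603 in sgScramble and from 0.472 to 0.710 in icOVA tumors (log2 difference 0.18, two-sided and exact permutation test, p = 0.571, Benjamini-Hochberg 0.571), where 2.85% of all genes had a ratio to Pdgfrb that was higher without overlap.

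**Figure D3:**
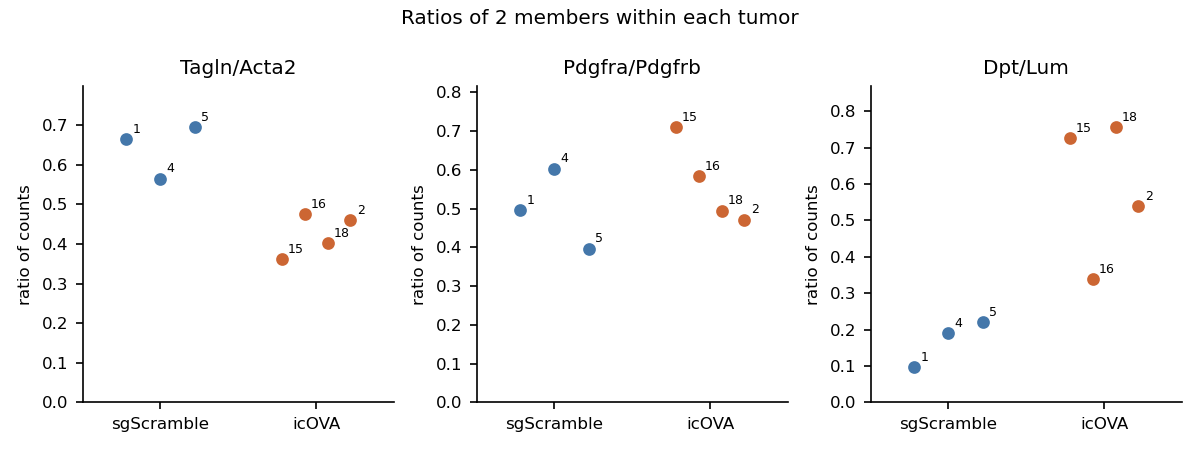
Ratio of the counts of 2 fibroblast markers within each tumor, for Tagln to Acta2, Pdgfra to Pdgfrb and Dpt to Lum, with tumor numbers beside the points and axes that start at 0. The groups are apart for the first pair (icOVA at most 0.476, sgScramble at least 0.565) and for the last (icOVA at least 0.338, sgScramble at most 0.221).

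The SD of log2 CPM was larger among the icOVA than among the sgScramble tumors for the members other than Acta2, Pdpn, Pdgfra and Il6. Tumor 18 had the highest value of the 4 for 9 of the 10 members, the exception being Il6, which was lowest there. Tumors 15 and 18 were the highest pair for 8 of the 10 members, as they were for 24.6% of all genes tested. Tumor 16 was the lowest for 6 members. The shares of all genes with tumor 18 highest or tumor 16 lowest were not computed, so those counts have no background. The median SD of log2 CPM among the icOVA tumors was 0.55 for the members and 0.19 for all genes tested, and among the sgScramble tumors it was 0.44 and 0.16.

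Marker genes of other cells also differed among these tumors. The summed CPM of 16 general fibroblast and matrix genes was 38520, 14550, 50740 and 17640 in icOVA tumors 15, 16, 18 and 2, and 15060 to 26600 in the sgScramble tumors. Markers of pericytes and vascular smooth muscle (9 genes) summed to 414.8, 230.6, 600.0 and 328.6 CPM in the same icOVA tumors and to 194.7 to 313.4 CPM in the sgScramble tumors. Those of vascular endothelium (5 genes) summed to 381.4, 190.2, 460.7 and 299.9 CPM, against 150.6 to 235.5 CPM. Leukocyte and macrophage markers (6 genes) summed to 973 to 1199 CPM in all 4 icOVA tumors, above the 519.8 to 763.3 CPM of the sgScramble tumors. Epithelial genes of the cancer cells (6 genes) summed to 2910 CPM in icOVA tumor 18 and to 4464 to 5072 CPM in the other 6 tumors. The part of these cell types in the members' values was not tested.

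Adipocyte genes (5 genes, of which 4 were tested) summed to 28.6 to 77.1 CPM in icOVA and 33.9 to 37.8 CPM in sgScramble tumors. The sum included Fabp4, also expressed by capillary endothelium, with 48.7, 15.8, 68.1 and 34.9 CPM in icOVA tumors 15, 16, 18 and 2 and 14.9 to 21.4 CPM in sgScramble tumors, whereas Adipoq, the adipocyte hormone, had at most 2.07 CPM in icOVA and 2.33 CPM in sgScramble tumors. Skeletal muscle genes (5 genes) summed to 1.90 to 128.3 CPM, highest in icOVA tumor 16 and lowest in icOVA tumor 2. Lymphatic endothelium and lymph node stroma genes (6 genes) summed to 13.8 to 44.8 CPM in icOVA and 10.2 to 26.7 CPM in sgScramble tumors. The skin keratin genes Krt14 and Krt10 summed to at most 2.73 CPM, and Krt5 and Krt1 were not analysed here.

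**Figure D4:**
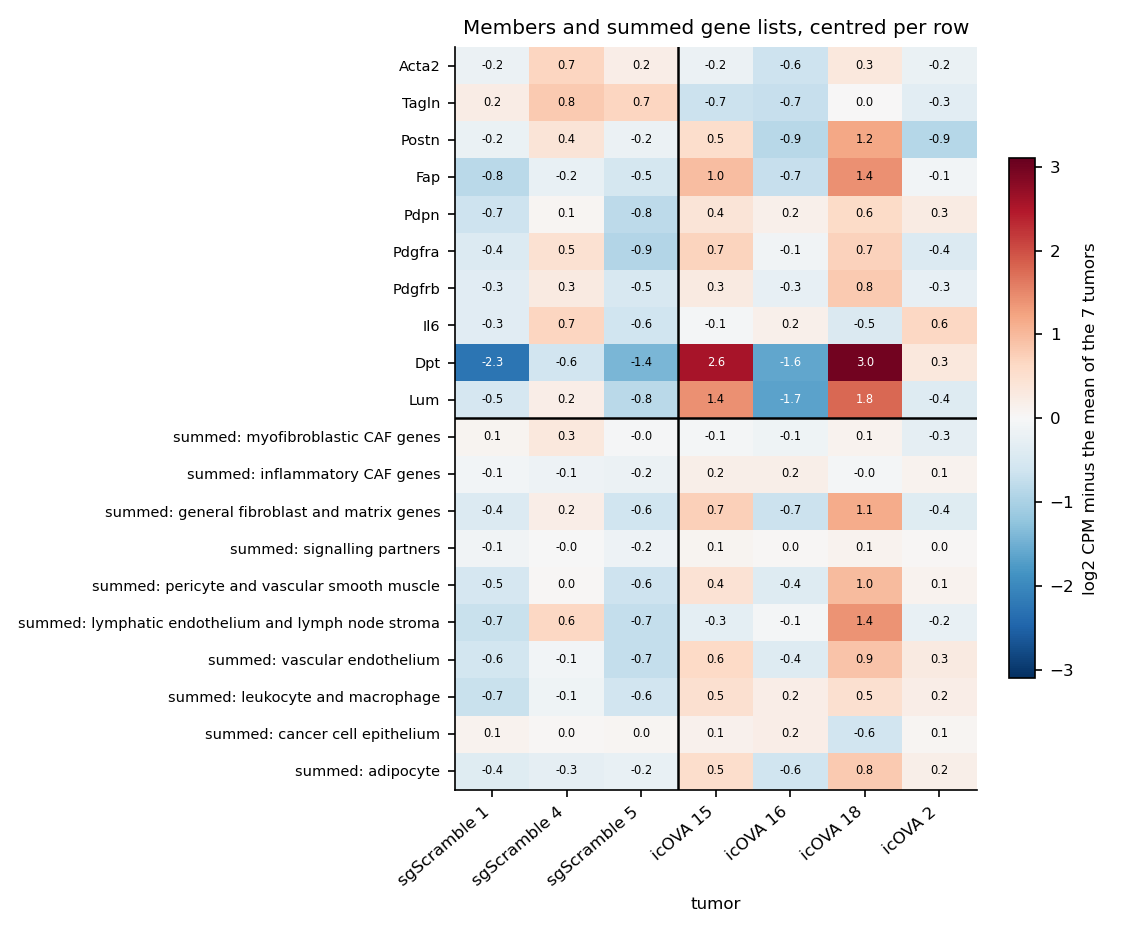
Log2 CPM of the 10 fibroblast markers (above the line) and log2 of the summed CPM of marker lists (below it), each row minus its mean over the 7 tumors, with the difference printed in each cell. In icOVA tumors 15 and 18 the cells are red for Dpt, Lum, Fap, the matrix genes, pericytes and endothelium, while Tagln is blue or near 0 in all 4 icOVA tumors.

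When libraries were scaled to the summed counts of the fibrillar collagen genes Col1a1, Col1a2 and Col3a1 in place of TMM, the log2 fold change of all genes shifted by a median of -0.41. On that scale Tagln had -1.46, Acta2 -0.92 and Postn -0.70, while Dpt had 1.89, Pdpn 0.41 and Fap 0.20. Pdgfra, Pdgfrb and Lum turned to -0.027, -0.21 and -0.020. The spread between tumors was large, and 0 of the 10 members passed the threshold (edgeR adjusted p from 0.964 to 0.996), where 0.103% of all genes tested were called.

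Lists of related genes were described beside the members by their counts and medians, to be read against the shares of all genes tested given above. Of 18 further myofibroblastic CAF genes, 0 were higher, 1 was lower and 17 were not called, with a median log2 fold change of -0.18. At an unadjusted p below 0.05, 0 were higher and 3 lower, DESeq2 called 0 and 3, and limma-voom called 0 in either direction, beside the shares of all genes given above. The gene that fell was Cnn1, which encodes calponin, an actin-binding protein of smooth muscle. It had 1.84, 3.74 and 2.78 CPM in the sgScramble tumors and 0.621, 1.003, 1.09 and 1.31 CPM in icOVA tumors 15, 16, 18 and 2 (log2 fold change -1.47, SE 0.32, edgeR adjusted p = 0.0430). Its call was lost with limma-voom (adjusted p = 0.0506) and with any 1 of the 7 tumors left out (edgeR adjusted p from 0.0535 to 0.172), while the log2 fold change stayed between -1.69 and -1.19.

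Of 20 further inflammatory CAF genes, 1 was higher, 0 were lower and 19 were not called. Their median was 0.46 and 18 were above 0, against 49.4% of all genes tested. At an unadjusted p below 0.05, 8 were higher and 1 lower, DESeq2 called 3 and 0, and limma-voom called 1 and 0. The leukocyte and vascular endothelial lists had medians of 0.82 and 0.85. The part of such cells in the values of the inflammatory list was not tested. The gene that rose was Ccl7, a chemokine that attracts monocytes and is also made by macrophages, with 13.4 to 19.4 CPM in sgScramble and 27.9 to 32.3 CPM in icOVA tumors (log2 fold change 0.92, SE 0.14, edgeR adjusted p = 0.0249). That call was lost without sgScramble tumor 1 or 5 or icOVA tumor 15 or 2 (edgeR adjusted p from 0.0640 to 0.126). Of the 16 general fibroblast and matrix genes, 0 were called in either direction by edgeR, with a median of 0.39, 2 higher and 1 lower at an unadjusted p below 0.05, 1 higher with DESeq2 and 0 called with limma-voom. The one with the smallest p was Vcan, the proteoglycan versican (log2 fold change 0.42, SE 0.13, edgeR adjusted p = 0.0949).

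Among 21 ligands, receptors and signalling partners of the members, 20 were tested, 1 was higher, 3 were lower and 16 were not called, with a median of 0.18. At an unadjusted p below 0.05, 7 were higher and 4 lower, DESeq2 called 5 and 4, and limma-voom called 1 and 3. Tgfb3, a TGF-beta ligand, fell from 80.4 to 101.5 CPM in sgScramble tumors to 40.4 to 51.3 CPM in icOVA tumors (log2 fold change -0.95, SE 0.12, edgeR adjusted p = 0.0230). Tgfb3 was not called without sgScramble tumor 1 or 5 or icOVA tumor 15 or 2 (edgeR adjusted p from 0.0614 to 0.122). The ligands Tgfb1 and Tgfb2 had log2 fold changes of 0.12 and 0.21 (edgeR adjusted p = 0.435 and 0.753). Pdgfa, Pdgfb, Pdgfc and Pdgfd encode ligands of the PDGF receptors. Pdgfa and Pdgfb had log2 fold changes of -0.14 and 0.094 (edgeR adjusted p = 0.621 and 0.586). Pdgfc had 58.0 to 93.2 CPM in sgScramble and 35.5 to 54.1 CPM in icOVA tumors (log2 fold change -0.87, SE 0.20, edgeR adjusted p = 0.0448), and Pdgfd, outside the naming rule, had a log2 fold change of -0.80 (edgeR adjusted p = 0.0437). The call of Pdgfc was lost with no filter on low counts (edgeR adjusted p = 0.0505), and without sgScramble tumor 1 or 5 or icOVA tumor 15, 18 or 2 (0.0650 to 0.199). Osm, a cytokine of the IL-6 family made by leukocytes, rose from 3.33 to 4.64 CPM in sgScramble tumors to 6.27 to 9.42 CPM in icOVA tumors (log2 fold change 0.95, SE 0.20, edgeR adjusted p = 0.0381). Osm was called only without icOVA tumor 16 or 18 among the fits that left out 1 tumor, the others giving edgeR adjusted p from 0.0606 to 0.173.

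In the marker lists of other cells, 4 of 6 leukocyte genes were higher, led by Cd3e, Ptprc and Itgam with log2 fold changes of 1.27, 1.08 and 0.83 (edgeR adjusted p = 0.0271 for each), calls that were lost without sgScramble tumor 1 or 5 or icOVA tumor 15 or 2. No gene of the pericyte, vascular endothelial, lymphatic, epithelial, adipocyte, muscle or skin lists was called by edgeR. At an unadjusted p below 0.05, 5 of 5 vascular endothelial genes and 3 of 9 pericyte and smooth muscle genes were higher, as was 1 lymphatic gene and 1 adipocyte gene, and DESeq2 called 4, 1, 1 and 1 in these lists and limma-voom 0. Of all genes tested, 13.4% were higher at that level. The lymphatic gene was the chemokine Ccl19 (log2 fold change 1.63, edgeR adjusted p = 0.0838) and the adipocyte gene Fabp4, which encodes a fatty acid binding protein (1.18, edgeR adjusted p = 0.133). Rgs5, a pericyte gene, and Pecam1, an endothelial gene, had log2 fold changes of 1.17 and 0.83 (edgeR adjusted p = 0.122 and 0.0985).

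**Figure D5:**
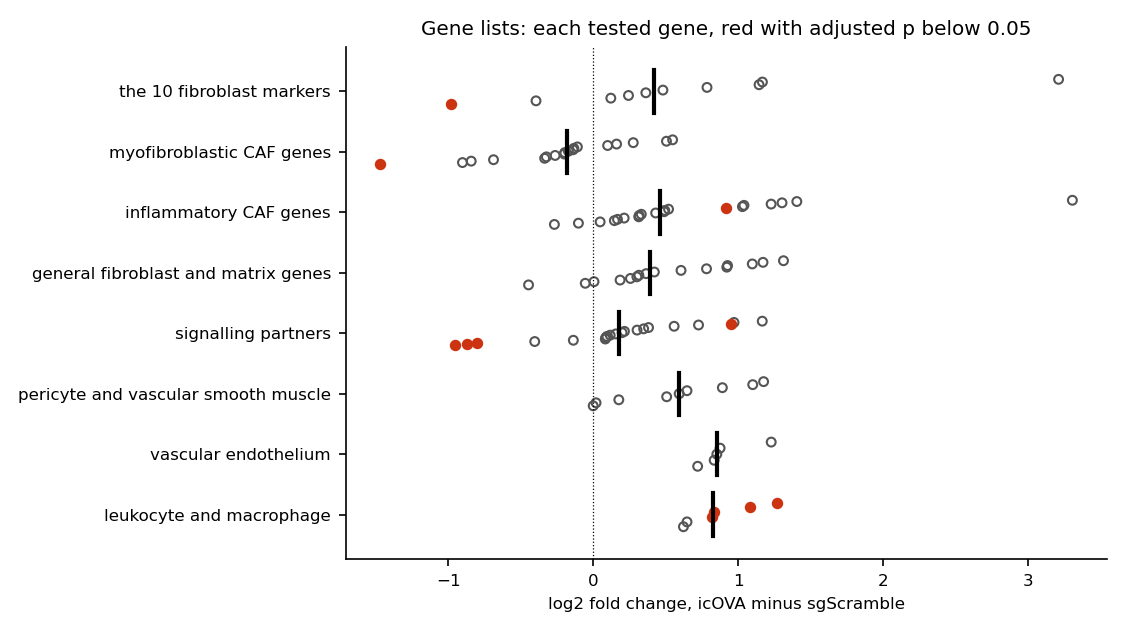
Log2 fold change, icOVA minus sgScramble, of each tested gene in the 10 fibroblast markers and in 7 gene lists, with genes of adjusted p below 0.05 (edgeR) in red and the median of each list as a vertical bar. The myofibroblastic list has a median of -0.18 with Cnn1 lowest, and the inflammatory list a median of 0.46. The leukocyte and vascular endothelial lists have medians of 0.82 and 0.85. The lists were chosen with earlier results of these data known.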

How the data were processed

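RNA of 7 tumors was sequenced. The genotype of the tumor from which the cell line was derived is not reported here. The authors deposited raw read counts per gene, without normalization, in 22629 rows. The submitters' processing notes name mm10 as the build. The methods describe stranded single-read TruSeq libraries, while the labels give polyA RNA. The aligner, the counting tool, the annotation and the use of strand are not given in the sources used here. Of the identifiers, 22414 have a symbol, and coordinates and exon lengths are those of GENCODE M21 on GRCm38. The groups were taken from the sample titles, and every pair within a group differed by more than sampling noise.

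The main test was that of edgeR 4.0.16 (R 4.3.3): filterByExpr (minimum count 10, minimum total 15), TMM and the quasi-likelihood test without covariates, with Benjamini-Hochberg adjustment over 17489 genes and a threshold of 0.05. Log2 CPM has a prior count of 2. The standard error is the log2 fold change divided by the square root of F. The alternatives were DESeq2 1.42.0, limma-voom (limma 3.58.1), total count, upper quartile and collagen scaling, 2 other filters on low counts, robust dispersion, another prior count, and each tumor left out. The test was run on simulated counts drawn gene by gene from the fitted spread. Such counts do not hold shifts shared by many genes of a tumor. The members and lists were chosen with earlier results of these data known. The named genes are the members, up to 3 called genes of each list with the largest change or otherwise the 1 with the smallest p, and the nearest gene to each member. Acta1, Pcsk7, Adipoq, Krt14, Tgfb1, Tgfb2, Pdgfa, Pdgfb, Pdgfd, Clec3b, Dpp4 and Actg2 are outside this rule.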

Additional observations from a re-analysis of the deposited data

Results flagged for a closer look

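Single values far from the other icOVA tumors were looked for among the 4 log2 CPM values of 36 named genes, where chance gives about 1.8 such values. The gap to the nearest tumor over the range exceeded Dixon's 95% critical value for 4 samples for 3 genes, none of them a fibroblast marker of the 10. Vcan had 7.64 log2 CPM in icOVA tumor 2, against 7.96 to 8 in the other 3. Myh4, a skeletal muscle myosin, had -3.47 log2 CPM in icOVA tumor 2, against 3.95 to 4.75. Krt10, a skin keratin, had 1.24 log2 CPM in icOVA tumor 18, against 0.73 to 0.79.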

How the results depend on the processing

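The 10 members' log2 fold changes were recomputed under 8 alternatives with all tumors in. Of these values 72 kept direction and call, 2 became called, 1 lost its call and 5 reversed. With a tumor left out, 59 kept both, 2 became called, 5 lost the call and 4 reversed. DESeq2 called 1558 genes higher and 1278 lower, and 2 members higher. With collagen scaling 7 genes were higher and 11 lower, and 0 members were lower. With each tumor left out, genes called higher ran from 0 to 1014 and lower from 0 to 716, members called higher from 0 to 1 and lower from 0 to 1. Leaving out sgScramble tumor 1 or 5, or icOVA tumor 15, gave 0 calls by edgeR, with 3087, 2936 and 3415 genes at an unadjusted p below 0.05. Without icOVA tumor 2, 6 were called higher and 2 lower. The cause was not tested.

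Collagen scaling shifted all genes by a median of -0.41 on the log2 scale, so that small positive values turn negative by the shift alone. The log2 fold changes below 0 there and above 0 otherwise were Postn (-0.70), Pdgfra (-0.027), Pdgfrb (-0.21), Lum (-0.020), Mdk (-0.53), Fez1 (-0.041), Rasl12 (-0.22) and Tas1r3 (-0.038). Postn reversed with limma-voom (-0.0080). With a tumor left out, the lowest and highest values were -0.27 and 0.50 for Postn and -0.11 and 0.62 for Il6. Il6 was -0.028, -0.11 and -0.10 without sgScramble tumor 1, sgScramble tumor 5 and icOVA tumor 2. Without icOVA tumor 18, Postn was -0.27 and Mdk -0.21. Tas1r3 was -0.049 without sgScramble tumor 1 and -0.0080 without icOVA tumor 2, with a highest value of 0.65. AC126937.2 was 0.033 without sgScramble tumor 4, with a lowest value of -0.49, and Mdk reached 0.72. No paired analysis was made because the labels give no pairing of tumors. The figure legend of the study describes the sgScramble and icOVA cells as paired, without saying which tumors belong together. Il6, with 52 to 135 counts, is the member whose precision depth limits most.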

Other observations

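Genes near each member in their pattern over the 7 tumors were ranked by the root mean square distance of centred log2 CPM, without a test. The nearest gene to Fap was Cd248, which encodes endosialin of fibroblasts and pericytes, at 0.094 log2 units, with a log2 fold change of 1.06. Dpt lay nearest to Ogn, which encodes the matrix proteoglycan osteoglycin, at 0.39, with a log2 fold change of 2.70. Pdgfrb lay 0.047 from Rasl12 and Pdgfra 0.061 from Fez1. Pdpn lay 0.077 from Gpr18, a receptor gene of lymphocytes (edgeR adjusted p = 0.05003). Lum was 0.18 from Slc38a4, Postn 0.18 from Mdk, Il6 0.17 from Tas1r3, Tagln 0.20 from Cpn2 and Acta2 0.12 from AC126937.2. Among the members themselves, Tagln and Dpt were the farthest apart, at 2.16.

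Some genes with values like those of Dpt and Tagln were chosen after their values were seen. Clec3b, which encodes the secreted protein tetranectin, had 0.748, 1.55 and 1.57 CPM in the sgScramble tumors and 19.5, 0.344, 26.8 and 4.197 CPM in icOVA tumors 15, 16, 18 and 2 (log2 fold change 3.30, edgeR adjusted p = 0.131). Dpp4, a surface peptidase related to Fap, had 5.40 to 7.87 CPM in sgScramble and 9.34 to 25.2 CPM in icOVA tumors, without overlap (log2 fold change 1.40, edgeR adjusted p = 0.0624). Actg2, a smooth muscle actin closely related to Acta2, was counted 256, 343 and 324 times in sgScramble tumors 1, 4 and 5, and 109, 85, 133 and 98 times in icOVA tumors 15, 16, 18 and 2. Its log2 fold change was -1.61 (edgeR adjusted p = 0.0230). Whether the change of Actg2 differed from that of Acta2 was not tested.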
